A study of Homo sapiens with 8 samples.

Results

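Transcripts of the collagen chaperone SERPINH1 and of 9 enzymes and partner proteins that modify procollagen in the endoplasmic reticulum were followed across 4 groups of lung adenocarcinoma cells. The 10 genes were chosen by symbol and matched to Ensembl gene identifiers: SERPINH1, the prolyl 4-hydroxylase subunits P4HA1 and P4HA2, the prolyl 3-hydroxylase complex genes P3H1 (LEPRE1 in older tables) and CRTAP, the lysyl hydroxylases PLOD1, PLOD2 and PLOD3, the galactosyltransferase COLGALT1, and the immunophilin FKBP10. All 10 were found among the 63677 gene identifiers counted, and all 10 passed the filter on low counts in both comparisons.

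Bulk RNA came from PC9, an established human lung adenocarcinoma line known for its activating EGFR mutation, and from its brain metastatic subline PC9-BrM3. PC9 parental and PC9-BrM3 cells, neither carrying a hairpin, were grown for 48 h before RNA was taken. The shNTC group was PC9-BrM3 transduced by lentivirus with Tet-pLKO-shNTC, a doxycycline-inducible non-target hairpin, and the shHSF1 group was PC9-BrM3 transduced with Tet-pLKO-shHSF1, a single hairpin (clone 7480) against the heat shock transcription factor HSF1. Both transduced groups, the control included, had 5 days of puromycin selection and 48 h of doxycycline at 500 ng/mL. With 1 hairpin, effects of losing HSF1 and other effects of that hairpin cannot be told apart. Each group had 2 libraries. The labels do not say whether these came from separate cultures, so p-values measure only how far these samples spread, and that spread may be technical. By the file headers, untransduced libraries were read on sequencing lane 7 and transduced ones on lane 1. Each comparison of 2 groups therefore stayed within a lane, and levels in the 2 sets are given side by side with no test. The difference between the 2 comparisons, and an alternative setting, used all 8 libraries in a fit. That difference takes any lane effect to be the same for both groups of a lane.

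Libraries held 33550140 to 56715336 gene-assigned counts, and a gene with no count in a library can lie anywhere below 0.0529 to 0.0894 CPM (counts scaled to a common library size; 3 counts were taken as the limit). PC9-BrM3 replicate 2 stood apart from the other 7 libraries, with 17.3% of its counts in mitochondrial genes against 1.40% to 6.23% elsewhere. In the subline comparison, calls of members are given with and without it, and shifts of the gene lists are described. HSF1 itself was at 178.3 and 183.7 CPM in the shNTC libraries and at 15.6 and 13.5 in the shHSF1 libraries, a 12.2-fold fall (-3.61 ± 0.08 on the log2 scale, SE; edgeR quasi-likelihood adjusted p = 2.66e-08). In the untransduced libraries, on the other lane, HSF1 was at 46.9 to 54.6 CPM, so the control it fell from stood above untransduced PC9-BrM3. Lane and transduction cannot be told apart in that. The adenocarcinoma label was checked by the epithelial markers EPCAM, KRT8, KRT18, KRT19 and CDH1, which summed to between 2766 and 5793 CPM in every library. Of 8 fibroblast markers none reached 1 CPM, their sum was at most 0.168 CPM, and DCN and LUM had no count in any library. Leukocyte markers summed to at most 0.826 CPM and brain cell markers to at most 0.392 CPM, with OLIG2 at 0 throughout. The endothelial markers CDH5 and VWF were not near 0. They summed to 52.2 and 55.9 CPM in PC9 parental and to 25.4 and 33.0 in PC9-BrM3. In the transduced cells their sum was 38.0 and 44.6 CPM in shNTC and 19.5 and 24.9 in shHSF1.

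Procollagen chains are modified in the endoplasmic reticulum while they fold. Prolyl 4-hydroxylase converts prolines in the repeats of the chain so that the triple helix is stable at body temperature, and lysyl hydroxylases and COLGALT1 act on lysines that later carry sugars and cross-links. SERPINH1 (also called HSP47) is a collagen-specific chaperone that binds the folded triple helix, travels with it to the Golgi and is returned by KDEL receptors, and its gene is a textbook member of the heat shock response. In cancers, collagen modification is best known from work on hypoxia, because P4HA1, P4HA2 and PLOD2 are established targets of hypoxia-inducible factors.

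The sequence at the gene starts is given first, since the knockdown targets a factor that binds a defined element. The heat shock element is built from inverted repeats of GAA and TTC. Promoter windows of 250 bases before to 50 bases after the gene start were available from RefSeq (GRCh38.p14) for 9 of the 10 genes, all but FKBP10. On both strands, overlapping matches included, GAANNTTC or TTCNNGAA (a pair of repeats) occurred in 13.7% of 27305 promoters. The 3-unit heat shock element, in which a further GAA or TTC follows in turn after another 2 free bases, occurred in 0.487%. Among the 9 genes, only SERPINH1 held the longer form, 13 bases that lie from 76 to 64 bases upstream of the start and contain 2 overlapping matches of the shorter form. The stretch of 250 bases before its start, chr11:75562003-75562252 on the plus strand, is shown because it carries that element, in capitals:
SERPINH1 promoter: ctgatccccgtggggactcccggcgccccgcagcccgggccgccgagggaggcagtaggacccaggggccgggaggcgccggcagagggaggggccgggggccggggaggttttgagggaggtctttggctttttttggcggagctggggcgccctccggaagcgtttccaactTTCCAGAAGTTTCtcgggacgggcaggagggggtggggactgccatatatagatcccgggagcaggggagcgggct

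PLOD1 was the only other of the 9 with a match of the shorter form, starting at base 5 after the gene start. The core of the hypoxia response element, ACGTG on either strand, occurred in 21.6% of the same promoters. It was found once in P4HA1, 86 bases upstream, once in SERPINH1, at base 36 after the start, and at 2 places in PLOD2, 200 and 146 bases upstream. The windows around the PLOD1 match and the P4HA1 and PLOD2 cores are shown because these genes are among the 10 measured, with the matched letters in capitals (CACGT is the core read on the other strand); they lie at chr1:11934712-11934739 (plus strand), chr10:73096938-73096962, chr3:146161370-146161394 and chr3:146161316-146161340 (all 3 on the minus strand):
PLOD1 repeat: gccccgtcgcGAAGTTTCcagccctgcg
P4HA1 core: tgatcgagctCACGTagcgagggct
PLOD2 distal core: tgagcctccaCACGTagccgcaggc
PLOD2 proximal core: aacagtccagACGTGgggcccagga
These are matches of letters and say nothing of binding. For scale, of 19 promoters of a list of 20 cytosolic and mitochondrial chaperone genes known as HSF1 targets, 6 held the shorter form and 3 the longer (CHORDC1, DNAJA1 and HSPA8).

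The knockdown comparison asks which transcripts differ when HSF1 is depleted in the metastatic subline. SERPINH1 fell 3.74-fold, P3H1 rose 2.03-fold, and PLOD1, P4HA1 and P4HA2 fell by smaller amounts, while COLGALT1 rose. In all 4 members were lower, 2 were higher and 4 did not pass an adjusted p of 0.05 in edgeR's quasi-likelihood test with Benjamini-Hochberg adjustment over all 16840 genes tested. By the same test 45.7% of all genes passed, 23.5% lower and 22.2% higher. For 7 of the 10 members the 2 groups had no overlap between libraries (5 lower, 2 higher), against 73.2% of all genes (38.5% lower, 34.7% higher), so neither count of members stands out from the background. The median log2 fold change of the 10 members was -0.02, beside 0.01 over all genes. In bulk RNA, fewer cells of a type and less RNA per cell cannot be told apart.

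**Figure D1:**
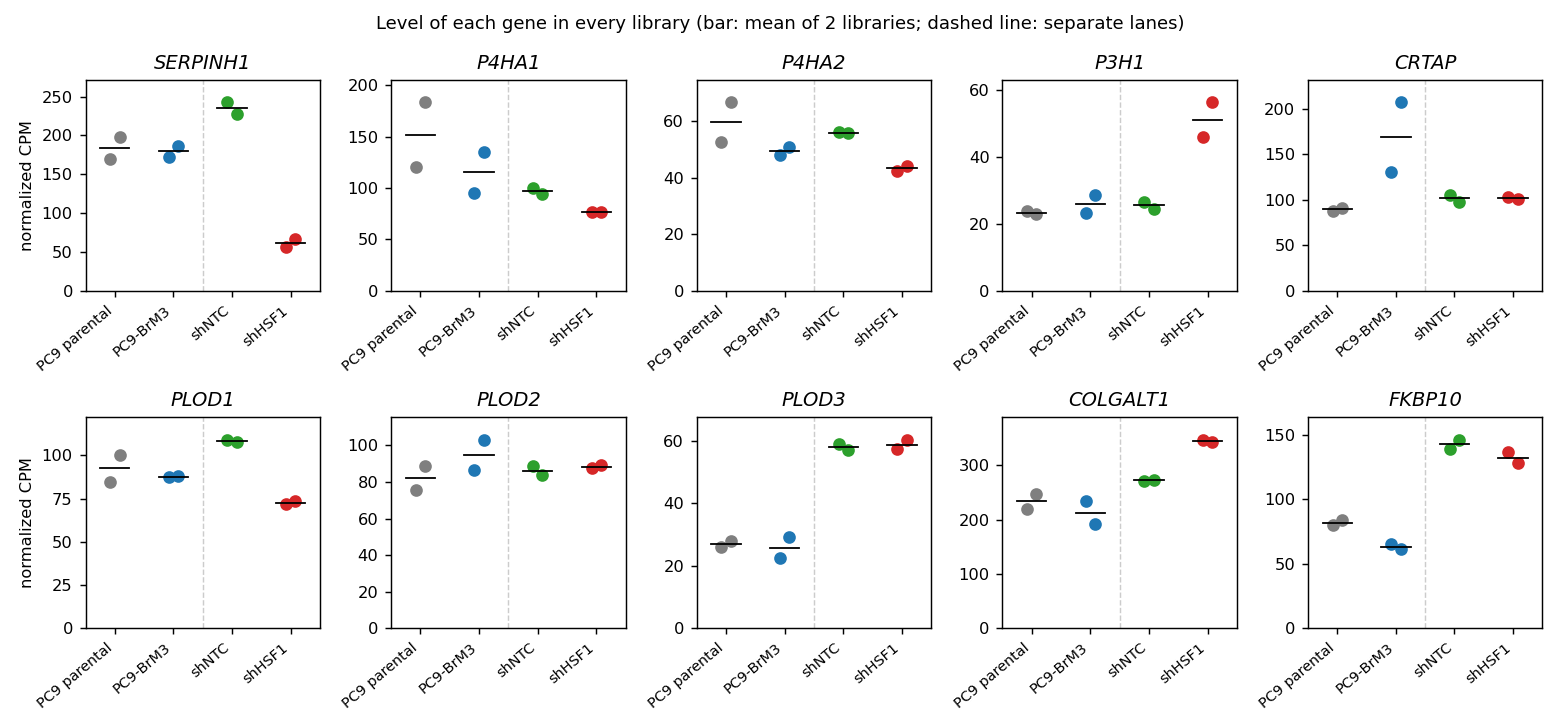
Normalized CPM (y axis, linear, from 0) of each of the 10 genes in each of the 8 libraries, by group on the x axis, with a point per library, a bar at the group mean and a dashed line between the lanes. SERPINH1 lies between 56.9 and 66.7 CPM in the shHSF1 libraries and at 169 CPM or above in the other 6, while P3H1 is highest in shHSF1.

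SERPINH1 (ENSG00000149257; GRCh37 chr11:75273101-75283828, plus strand) was at 242.5 and 227.3 CPM in the shNTC libraries and at 56.9 and 66.7 in the shHSF1 libraries. Both knockdown libraries lay far below both controls. The group means were 234.9 ± 10.8 and 61.8 ± 6.97 CPM (SD, n = 2 each), and the fold change on the log2 scale was -1.90 ± 0.08 (SE; 95% interval -2.09 to -1.72; edgeR adjusted p = 2.08e-07). Ranked by fold change, SERPINH1 was the 177th lowest of the 16840 genes. Untransduced cells gave 169.4 and 198.3 CPM in PC9 parental and 172.2 and 186.7 in PC9-BrM3, so all 6 libraries without the HSF1 hairpin were above both libraries with it.

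Among the hydroxylases of proline, the catalytic subunits of prolyl 4-hydroxylase were modestly lower. P4HA1 (ENSG00000122884; GRCh37 chr10:74766975-74856732, minus strand), the main catalytic alpha subunit in most cells, was at 99.9 and 93.7 CPM in shNTC and 76.2 and 76.9 in shHSF1. The groups did not overlap, and the log2 fold change was -0.32 ± 0.07 (SE, n = 2 per group; edgeR adjusted p = 0.0031). P4HA2 (ENSG00000072682; GRCh37 chr5:131527531-131631008, minus strand), its paralog, was at 56.2 and 55.7 CPM in shNTC and 42.4 and 44.1 in shHSF1. These did not overlap either, and P4HA2 fell by 0.35 ± 0.07 on the log2 scale (SE, n = 2 per group; edgeR adjusted p = 0.00237). Both calls were lost when all 8 libraries shared an estimate of spread (edgeR adjusted p = 0.319 for P4HA1 and 0.0792 for P4HA2). The ratio of P4HA1 to P4HA2, in counts per kilobase within a library, was 4.75 and 4.49 in shNTC and 4.79 and 4.65 in shHSF1, ranges that overlap, so these 2 paralogs shifted by like amounts.

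P3H1, the catalytic subunit of the complex that hydroxylates single prolines at the 3 position, and CRTAP, its non-catalytic partner, went separate ways. P3H1 (ENSG00000117385; GRCh37 chr1:43212006-43232755, minus strand) was at 26.5 and 24.5 CPM in shNTC and 45.9 and 56.2 in shHSF1. The knockdown libraries were the 2 highest of all 8, since the untransduced libraries lay between 22.9 and 28.7 CPM. P3H1 rose 2.03-fold (1.02 ± 0.10 on the log2 scale, SE, n = 2 per group; edgeR adjusted p = 3.76e-05). CRTAP (ENSG00000170275; GRCh37 chr3:33155471-33189265, plus strand) was at 105.4 and 97.8 CPM in shNTC and at 103.7 and 101.4 in shHSF1. The groups overlapped, and the 95% interval of its log2 fold change ran from -0.11 to 0.18 around 0.04 (edgeR adjusted p = 0.69). The ratio of P3H1 to CRTAP per kilobase was 0.249 and 0.248 in shNTC and 0.438 and 0.548 in shHSF1, 1.97-fold higher with the hairpin against HSF1.

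The 3 lysyl hydroxylases also differed among themselves. PLOD1 (ENSG00000083444; GRCh37 chr1:11994262-12035595, plus strand), which acts mainly on lysines within the helix, was at 109.1 and 107.6 CPM in shNTC and 72.1 and 73.3 in shHSF1. Replicates were close and the groups did not overlap, and PLOD1 fell 1.47-fold (log2 fold change -0.55 ± 0.06, SE, n = 2 per group; edgeR adjusted p = 6.56e-05). PLOD2 (ENSG00000152952; GRCh37 chr3:145787227-145881440, minus strand), the lysyl hydroxylase of the telopeptides where cross-links form, was at 88.7 and 83.6 CPM in shNTC and at 87.6 and 89.2 in shHSF1. PLOD3 (ENSG00000106397; GRCh37 chr7:100849258-100861701, minus strand), which also carries glycosyltransferase activity, was at 59.0 and 56.9 CPM in shNTC and at 57.2 and 60.3 in shHSF1. Neither passed, with overlapping libraries and log2 fold changes whose 95% intervals ran from -0.08 to 0.21 for PLOD2 (edgeR adjusted p = 0.481) and from -0.11 to 0.20 for PLOD3 (edgeR adjusted p = 0.641).

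The make-up of the family shifted with the fall of PLOD1. The PLOD2 to PLOD1 ratio per kilobase was 0.566 and 0.541 in shNTC and 0.846 and 0.847 in shHSF1, 1.53-fold higher. The PLOD3 to PLOD1 ratio went from 0.507 and 0.496 to 0.745 and 0.772, 1.51-fold higher. PLOD1 held a mean of 48.7% of the lysyl hydroxylase transcripts per kilobase in shNTC and 38.4% in shHSF1, while PLOD2 went from 26.9% to 32.5% and PLOD3 from 24.4% to 29.1%. A ratio within a library does not depend on scaling, and alone it shows unequal change without saying which member moved. By the tests above, PLOD1 fell while PLOD2 and PLOD3 were not called. These ratios and shares therefore largely restate the fall of PLOD1. With 2 libraries a group no exact test of a ratio can pass 0.05, so the ratios are given as values.

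COLGALT1 (ENSG00000130309; GRCh37 chr19:17666403-17693971, plus strand), which adds galactose to hydroxylysine, was at 271.0 and 272.7 CPM in shNTC and 347.0 and 342.8 in shHSF1. It rose 1.29-fold with no overlap (log2 fold change 0.37 ± 0.05, SE, n = 2 per group; edgeR adjusted p = 0.000394), a call that was lost with all 8 libraries in a single fit (edgeR adjusted p = 0.0783). FKBP10 (ENSG00000141756; GRCh37 chr17:39968932-39979465, plus strand), an immunophilin also known as FKBP65 that assists SERPINH1 and telopeptide lysyl hydroxylation, was at 139.0 and 146.5 CPM in shNTC and at 136.6 and 128.2 in shHSF1. Both knockdown libraries were below both controls, but the difference did not pass (log2 fold change -0.08 ± 0.06, SE, n = 2 per group; 95% interval -0.22 to 0.05; edgeR adjusted p = 0.297).

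**Figure D2:**
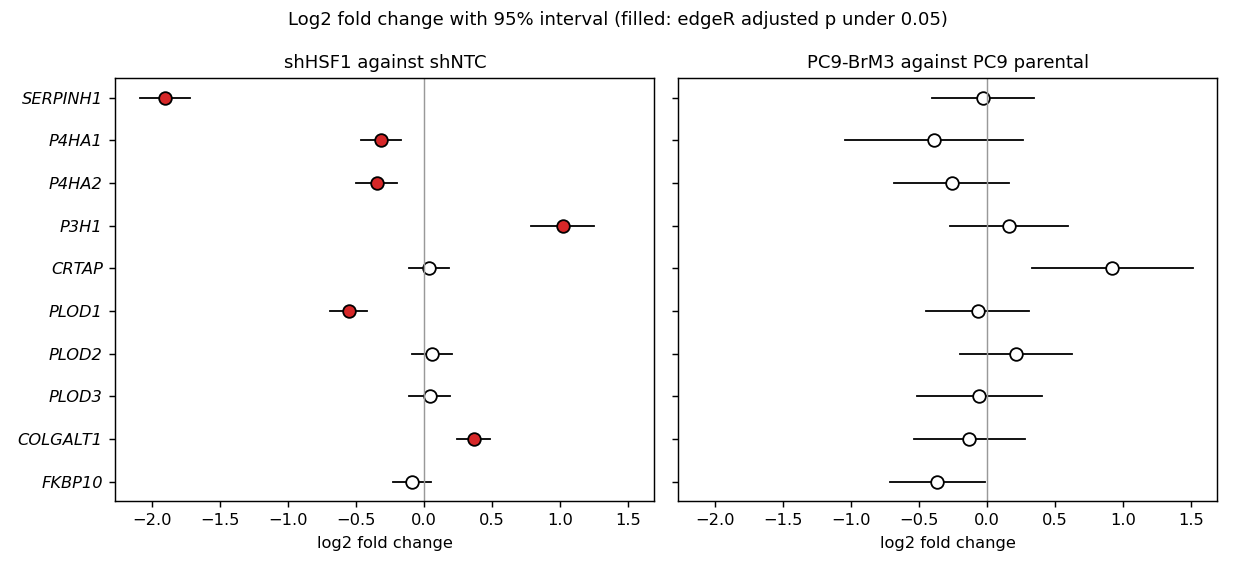
Log2 fold change (x axis) of each of the 10 genes (y axis) in the knockdown comparison (shHSF1 minus shNTC) and in the subline comparison (PC9-BrM3 minus PC9 parental), with 95% intervals as lines and filled circles where the edgeR adjusted p was under 0.05. The knockdown value of SERPINH1, -1.90, lies far below those of the other 9 members, and its subline value is -0.03.

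The order of the members by level per kilobase changed at SERPINH1. In shNTC, COLGALT1 came first with a mean of 55.5 CPM per kilobase, followed by SERPINH1 at 47.8, FKBP10 at 33.4 and P4HA1 at 30.4, and P3H1 came last at 3.77. No 2 neighbours in that order had overlapping libraries. In shHSF1, COLGALT1 stood at 70.4 and FKBP10 at 31.0 CPM per kilobase, and SERPINH1 moved from place 2 to place 6, at 12.6. There its libraries overlapped those of both its neighbours, PLOD1 at 13.7 and PLOD2 at 11.6 CPM per kilobase. P4HA2 was lowest in shHSF1 at 5.09 CPM per kilobase, below P3H1 at 7.54.

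SERPINH1 was also set against the collagen chains it serves. Summed over 44 collagen chain genes, per kilobase and within a library, its level was 0.214 and 0.213 of the collagen sum in shNTC and 0.0535 and 0.0628 in shHSF1, 3.68-fold lower. Much of the collagen sum came from type VI chains, whose level in the transduced cells was high: COL6A1 was at 509.2 and 483.9 CPM in shNTC and at 418.2 and 445.2 in shHSF1. In the untransduced cells, on the other lane, COL6A1 was at 26.7 to 86.4 CPM and the SERPINH1 to collagen ratio ran from 0.856 to 1.09. Lane, transduction, selection and doxycycline cannot be told apart in that last contrast. The same holds for FKBP10 and PLOD3, which stood at 61.4 to 83.7 and 22.4 to 29.1 CPM in untransduced cells and at 128.2 to 146.5 and 56.9 to 60.3 in transduced ones.

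**Figure D3:**
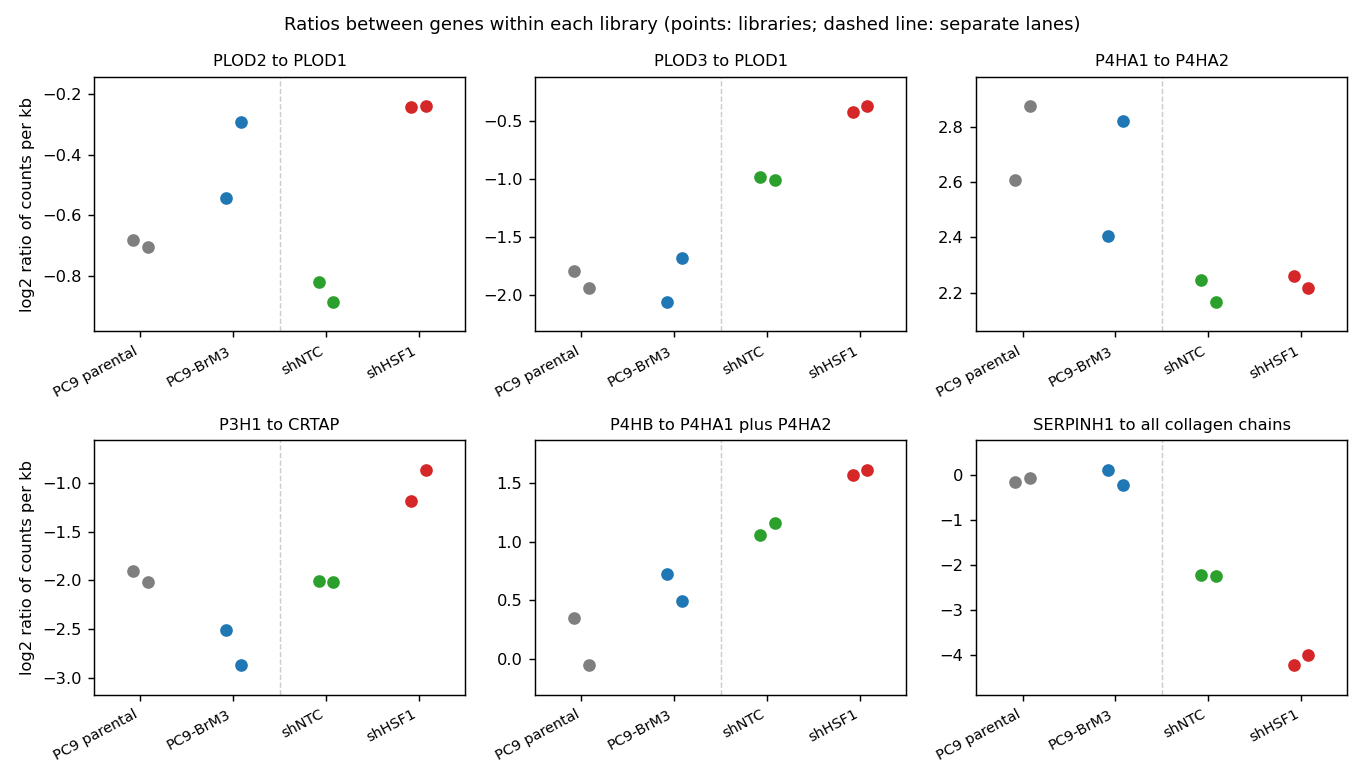
Ratios of members and partners within each library, in counts per kilobase (y axis, log2 scale), with a point for each of the 8 libraries by group (x axis) and a dashed line between the lanes. The ratio of SERPINH1 to the collagen sum is lowest in the 2 shHSF1 libraries, and the P3H1 to CRTAP ratio is highest there.

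The subline comparison asks what differs between the metastatic cells and the line they came from. None of the 10 members passed the test, where 7.14% of 17372 genes did (3.27% lower, 3.87% higher). In edgeR 2 members, CRTAP and FKBP10, had an unadjusted p under 0.05. The share of all genes under that unadjusted level was not computed. Such counts, here and for the gene lists below, therefore have no background beside them and are not read as a result. DESeq2 called 1 member, CRTAP. Without PC9-BrM3 replicate 2, edgeR called CRTAP higher and FKBP10 lower. Without PC9-BrM3 replicate 1 it called CRTAP, PLOD2 and P3H1 higher and FKBP10 and COLGALT1 lower. Each of these fits rests on a lone PC9-BrM3 library and called many more of all genes, so these calls do not set the members apart. The groups did not overlap for 3 of the 10 members (CRTAP higher, FKBP10 and P4HA2 lower), against 59.0% of all genes (30.0% lower, 29.0% higher). The median log2 fold change of the members was -0.06, beside 0.01 over all genes. SERPINH1 gave a log2 fold change of -0.03 ± 0.15 with a 95% interval from -0.40 to 0.35 (SE, n = 2 per group; edgeR adjusted p = 0.929), so a change of the size seen in the knockdown lies outside that interval.

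CRTAP was at 87.7 and 91.3 CPM in PC9 parental and at 130.5 and 207.4 in PC9-BrM3. Both subline libraries were higher, and they differed widely between themselves. The log2 fold change was 0.92 ± 0.24 (SE, n = 2 per group; 95% interval 0.33 to 1.52; edgeR adjusted p = 0.0821). Without PC9-BrM3 replicate 2 it was 0.54 (edgeR adjusted p = 0.000207), and without replicate 1 it was 1.22 (edgeR adjusted p = 7.42e-10). Those fits rest on a lone PC9-BrM3 library that is assumed to vary like the parental pair. DESeq2 gave CRTAP an adjusted p of 0.0124.

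FKBP10 was at 80.3 and 83.7 CPM in PC9 parental and 65.4 and 61.4 in PC9-BrM3. Each pair of replicates was close, and the subline was lower in both libraries. The log2 fold change was -0.36 ± 0.14 (SE, n = 2 per group; 95% interval -0.71 to -0.01; edgeR adjusted p = 0.186), and it passed without PC9-BrM3 replicate 1 (-0.41; edgeR adjusted p = 0.0019) and without replicate 2 (-0.33; edgeR adjusted p = 0.0151). P4HA2 was at 52.5 and 66.7 CPM in PC9 parental and 48.0 and 51.0 in PC9-BrM3, lower in both subline libraries but by less than the spread allowed to be called (log2 fold change -0.26 ± 0.17, SE, n = 2 per group; edgeR adjusted p = 0.389).

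The other members overlapped. P4HA1 was the most variable of them, at 120.0 and 183.3 CPM in PC9 parental and 95.4 and 135.1 in PC9-BrM3 (log2 fold change -0.39, 95% interval -1.04 to 0.27; edgeR adjusted p = 0.407). COLGALT1 was at 220.05 and 246.6 CPM against 233.2 and 191.2, and PLOD1 at 84.4 and 100.5 against 87.7 and 87.8. PLOD2 was at 75.6 and 88.5 CPM in PC9 parental and at 86.4 and 103.1 in PC9-BrM3. P3H1, at 22.9 to 28.7 CPM, and PLOD3, at 22.4 to 29.1 CPM, were the 2 members with the lowest CPM in both groups. Per kilobase, COLGALT1 led in both (47.6 in PC9 parental and 43.3 CPM per kilobase in PC9-BrM3) and P3H1 came last (3.44 and 3.83), and in PC9 parental P4HA1 overlapped both COLGALT1 and SERPINH1. The P3H1 to CRTAP ratio was 0.267 and 0.248 in PC9 parental and 0.176 and 0.137 in PC9-BrM3, 1.66-fold lower, and the PLOD2 to PLOD1 ratio was 1.21-fold higher, both without overlap.

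Whether the 2 fold changes of a gene differ was tested in a fit of all 8 libraries, in which 23.5% of 18122 genes passed. SERPINH1 passed (knockdown minus subline -1.89 ± 0.18 on the log2 scale, SE, n = 2 per group; edgeR adjusted p = 0.000342), as did P3H1 (0.85 ± 0.21; edgeR adjusted p = 0.0219) and CRTAP (-0.90 ± 0.27; edgeR adjusted p = 0.0428). The P3H1 call was lost in 5 of 11 alternative settings and the CRTAP call in 7. PLOD1, whose knockdown fall was clear, missed the threshold for the difference (-0.50 ± 0.16; edgeR adjusted p = 0.0508), and so did COLGALT1 (0.48 ± 0.17; edgeR adjusted p = 0.0757). For the remaining 5 members the adjusted p in edgeR was 0.213 or higher in this fit. Among the 11 alternative settings the difference passed for PLOD1 in 2, for COLGALT1 in 3 and for FKBP10 in 1.

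Other proteins of the procollagen-folding compartment were taken from a list of 16 partners, 13 of which had enough counts to test. With the HSF1 hairpin 5 were higher and 3 lower, beside 22.2% of all genes higher and 23.5% lower. The median log2 fold change of -0.03 turned positive with other scalings (0.03 with upper-quartile factors and 0.06 with DESeq2) and with each library left out (0.0061 to 0.068). The count higher was 3 without shNTC replicate 1 and without shHSF1 replicate 2. P3H2, a prolyl 3-hydroxylase related to P3H1, was at 9.80 and 9.55 CPM in shNTC and 36.6 and 32.5 in shHSF1, 3.62-fold higher (log2 fold change 1.86 ± 0.10, SE, n = 2 per group; edgeR adjusted p = 7.41e-07). In untransduced cells, on the other lane, P3H2 was at 19.3 to 21.8 CPM, so its control stood below them. Lane and transduction cannot be told apart in that. KDELR3, a KDEL receptor of the kind that returns SERPINH1 from the Golgi, was at 28.2 and 28.7 CPM in shNTC and 18.6 and 20.9 in shHSF1 (log2 fold change -0.50 ± 0.09, SE, n = 2 per group; edgeR adjusted p = 0.00154). KDELR1, a receptor of the same family, moved the other way, from 356.8 and 355.6 CPM in shNTC to 443.9 and 411.3 in shHSF1 (0.29 ± 0.06; edgeR adjusted p = 0.00319), a call lost with all 8 libraries in a single fit (edgeR adjusted p = 0.238). The immunophilin FKBP9 was lower as well (-0.35 ± 0.08; edgeR adjusted p = 0.00503), and P3H4, a prolyl 3-hydroxylase relative without known catalytic activity, was higher (0.44 ± 0.07; edgeR adjusted p = 0.000743). The P3H4 call was lost in 1 of 10 alternatives. Thus both P3H1 and its relative P3H2 rose, and the libraries of neither overlapped the controls.

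P4HB, the protein disulfide isomerase that forms the beta subunit of prolyl 4-hydroxylase, was at 420.0 and 425.6 CPM in shNTC and 455.0 and 475.3 in shHSF1 (log2 fold change 0.16 ± 0.06, SE, n = 2 per group; edgeR adjusted p = 0.0378). That call was lost in 7 of 10 alternatives, among them each fit with 1 of the 4 libraries left out (log2 fold change 0.13 to 0.19). Set against its catalytic partners, the ratio of P4HB to P4HA1 and P4HA2 together, per kilobase, was 2.09 and 2.23 in shNTC and 2.97 and 3.06 in shHSF1, 1.40-fold higher. This ratio was also higher in the subline, at 1.27 and 0.963 in PC9 parental and 1.65 and 1.41 in PC9-BrM3 (1.38-fold, without overlap). PPIB, the cyclophilin that completes the complex of P3H1 and CRTAP, rose by 0.27 ± 0.07 on the log2 scale (SE, n = 2 per group; edgeR adjusted p = 0.0141). The PPIB call was lost in 3 of 10 alternatives, among them the fits without shNTC replicate 1 (0.24) and without shHSF1 replicate 2 (0.16). In the subline comparison none of the 13 partners was called by edgeR or DESeq2, with 3 at an unadjusted p under 0.05. Partners were called in both directions when either PC9-BrM3 library was left out, in fits that called many more of all genes.

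Of 16 genes that carry procollagen from the endoplasmic reticulum, 3 were higher and 4 lower with the HSF1 hairpin (median log2 fold change -0.10). Over all genes 22.2% were higher and 23.5% lower, and the counts of the 16 moved when a library was left out. None was called in the subline by edgeR, 1 was called higher by DESeq2, and 4 had an unadjusted p under 0.05 in edgeR. Here too, leaving out either PC9-BrM3 library gave calls in both directions, in fits that called many more of all genes. SEC23A, an inner-coat subunit of the vesicles that leave the endoplasmic reticulum, was at 72.1 and 71.5 CPM in shNTC and 125.2 and 117.9 in shHSF1 (log2 fold change 0.78 ± 0.06, SE, n = 2 per group; edgeR adjusted p = 9.25e-06). KLHL12, the ubiquitin ligase adaptor that enlarges those vesicles for collagen, moved the other way, from 61.9 and 56.6 CPM to 30.9 and 28.1 (-0.98 ± 0.08; edgeR adjusted p = 1.18e-05).

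A list of 14 enzymes and helpers that act on collagen after secretion was examined in the same way. Of 11 tested in the knockdown 4 were higher and 4 lower, beside 45.7% of all genes called, and the count higher was 2 without either shNTC library and with DESeq2. Of 12 tested in the subline 1 was higher and 3 were lower, beside 7.14% of all genes. Fewer were called without either parental library and more without either PC9-BrM3 library, and the same held for all genes. LOX, the lysyl oxidase that starts cross-linking, was at 33.0 and 34.1 CPM in PC9 parental and 7.49 and 8.66 in PC9-BrM3, 4.13-fold lower (log2 fold change -2.05 ± 0.17, SE, n = 2 per group; edgeR adjusted p = 0.00481). In the transduced subline it was at 17.8 and 15.8 CPM in shNTC and 31.9 and 36.0 in shHSF1 (1.04 ± 0.10; edgeR adjusted p = 2.78e-05). Its relative LOXL4 went the other way in each comparison.

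LOXL4 was at 52.4 and 59.7 CPM in PC9 parental and 112.1 and 101.1 in PC9-BrM3 (log2 fold change 0.94 ± 0.16, SE, n = 2 per group; edgeR adjusted p = 0.0264). It was at 73.9 and 85.2 CPM in shNTC and 37.5 and 41.4 in shHSF1 (-0.99 ± 0.09; edgeR adjusted p = 1.35e-05). Its subline call was lost without either parental library (edgeR adjusted p = 0.393 without replicate 1 and 0.209 without replicate 2). LOXL1 was lower in the knockdown (-0.52 ± 0.06; edgeR adjusted p = 0.000132). TLL1, a procollagen C-proteinase of the BMP1 family, had 129 and 131 counts in PC9 parental and 0 and 4 in PC9-BrM3, a ratio of 51.7 with a 95% counting interval from 19.95 to 191.2 over the pooled counts. The transduced PC9-BrM3 cells had 62 and 55 counts of TLL1 in shNTC and 97 and 124 in shHSF1, where it was higher with the HSF1 hairpin (1.13 ± 0.23 on the log2 scale; edgeR adjusted p = 0.00313), a call lost with all 8 libraries in a single fit (edgeR adjusted p = 0.0915).

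**Figure D4:**
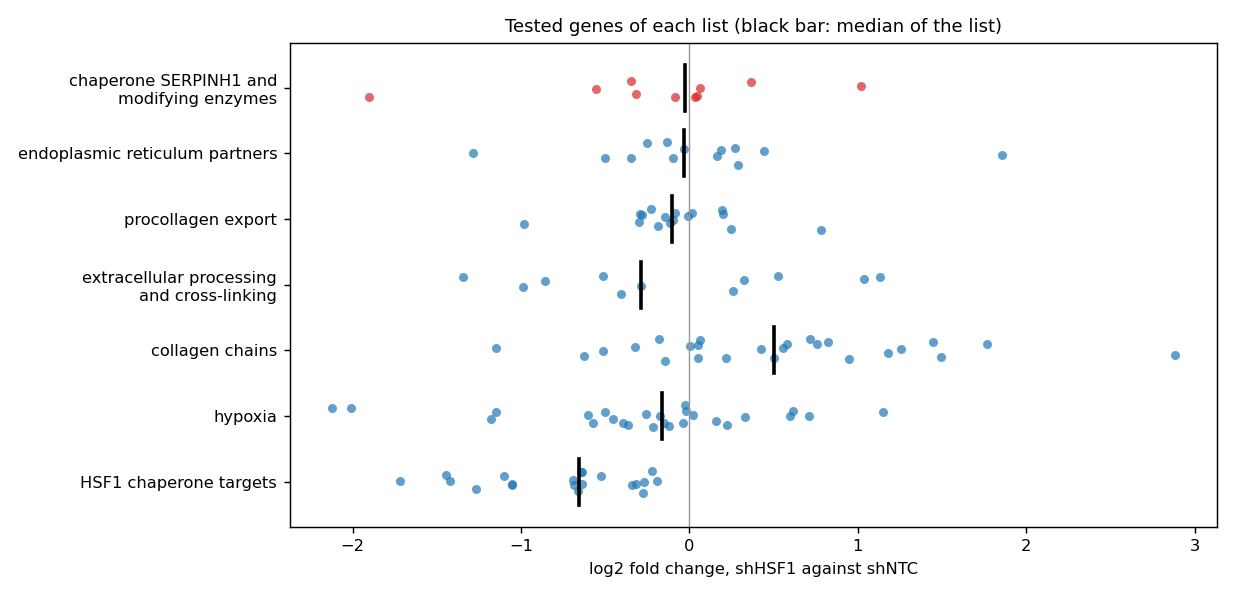
Log2 fold change of shHSF1 against shNTC (x axis) for every tested gene of 6 gene lists and for the 10 members (y axis), with a point per gene and a black bar at the median of each list. The points of the chaperone list lie below 0, with a median of -0.66, while the 10 members straddle 0.

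Of the collagen chains themselves, 25 of 44 had enough counts to test in the knockdown, where 13 were higher and 4 lower with a median log2 fold change of 0.50, beside 22.2% of all genes higher, 23.5% lower and a median of 0.01. COL4A6, a basement membrane chain, was at 13.3 and 14.1 CPM in shNTC and 42.3 and 33.5 in shHSF1 (log2 fold change 1.49 ± 0.12, SE, n = 2 per group; edgeR adjusted p = 7.82e-06). COL6A3, a type VI chain, was at 26.6 and 25.01 CPM in shNTC and 10.9 and 12.02 in shHSF1 (-1.15 ± 0.10; edgeR adjusted p = 1.52e-05). Several called chains were low: COL4A3 was at most 2.52 CPM in any library. In the subline 4 of 24 chains were higher and 6 lower, with a median of -0.18, beside 3.87% and 3.27% of all genes. These counts moved with each library left out. They fell without either parental library and rose without either PC9-BrM3 library, and the number of all genes called moved the same way. Without PC9 parental replicate 2 the median was 0.12. COL8A1 had 246 and 306 counts in PC9 parental and 1 and 0 in PC9-BrM3. The ratio over the pooled counts was 439.1, with a 95% counting interval of 78.5 to 17374 that leaves out the spread between libraries. COL8A1 was not absent from the transduced PC9-BrM3 cells, with 200 and 220 counts in shNTC and 252 and 297 in shHSF1. COL4A1, a basement membrane chain, was at 7.81 and 6.68 CPM in PC9 parental and 19.2 and 24.5 in PC9-BrM3 (3.03-fold higher, SE 0.21 on the log2 scale; edgeR adjusted p = 0.0156), a call lost without either parental library (edgeR adjusted p = 0.0555 without replicate 1 and 0.0784 without replicate 2). So while SERPINH1 fell with the HSF1 hairpin, 13 collagen chains were called higher and 4 lower, and the 10 members rose and fell in mixed fashion. A count of chains does not give their summed level. COL6A1 and COL6A2, the chains of highest mean CPM over the 8 libraries, had negative log2 fold changes (-0.18 and -0.32). The ratio of SERPINH1 to the collagen sum fell 3.68-fold, beside 3.74-fold for SERPINH1 alone, so that sum changed little.

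A chaperone list and a hypoxia list give the setting of these values. Of 20 cytosolic and mitochondrial chaperones known as HSF1 targets, 17 were lower with the HSF1 hairpin and the other 3 were not called, with a median log2 fold change of -0.66. Over all genes 23.5% were lower. The count lower was 15 with upper-quartile factors and 18 with DESeq2. It was below both of these without shHSF1 replicate 1, in a fit on a lone shHSF1 library, where the median was -0.57. HSPA4L, an HSP110 relative, was at 126.6 and 128.9 CPM in shNTC and 46.9 and 46.7 in shHSF1, and HSPH1 at 416.7 and 455.1 against 167.1 and 188.5, falls of 1.42 and 1.27 on the log2 scale beside 1.90 for SERPINH1. The deepest called fall of the list was nearer to SERPINH1: HSPA1A was at 73.0 and 112.4 CPM in shNTC and 21.9 and 33.5 in shHSF1 (-1.72 ± 0.37, SE; edgeR adjusted p = 0.0451). That call was lost in 4 of 10 alternatives. HSPA1B, at -1.45, was not called. Of 26 genes of the hypoxia response, to which P4HA1, P4HA2 and PLOD2 are usually counted, 5 were higher and 12 lower (median -0.16). Over all genes 22.2% were higher and 23.5% lower. HIF1A, the oxygen-regulated subunit, was at 490.3 and 493.7 CPM in shNTC and 202.6 and 225.2 in shHSF1 (-1.18 ± 0.06; edgeR adjusted p = 7.88e-07). CA9, a carbonic anhydrase used as a hypoxia marker, and HIF1AN, which inhibits HIF1A, were lower (-2.12 ± 0.23 and -2.01 ± 0.07; edgeR adjusted p = 5.59e-05 and 6.70e-08), while ADM, the adrenomedullin gene, was higher (1.15 ± 0.11; edgeR adjusted p = 2.67e-05). So listed hypoxia genes went both ways, P4HA1 and P4HA2 were lower, and PLOD2 was not called. In the subline edgeR called no gene of either list, with 4 chaperones and 5 hypoxia genes at an unadjusted p under 0.05, and DESeq2 called no chaperone and 2 hypoxia genes, 1 higher and 1 lower. Leaving out either PC9-BrM3 library gave calls in both directions in both lists, in fits that called many more of all genes. The median of the chaperones was 0.27 without PC9-BrM3 replicate 1 and -0.07 without replicate 2. That of the hypoxia genes was -0.11 and 0.10. A call also appeared in the hypoxia list without PC9 parental replicate 1. The summed epithelial markers were at 4137 and 4369 CPM in shNTC and 5500 and 5793 in shHSF1. KRT8, KRT18 and CDH1 were higher in both shHSF1 libraries, KRT8 at 1416 and 1411 CPM against 2117 and 2185, while EPCAM and KRT19 overlapped between the groups. Their part in these results was not tested.

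The genes whose pattern was most like that of SERPINH1 were sought among 9742 genes of at least 10 CPM on average, by the root mean square distance of log2 CPM centred within each lane, over the 8 libraries. The nearest were ADAR, an RNA-editing enzyme (distance 0.0705), COX20, an assembly factor of cytochrome oxidase (0.0713), EPDR1 (0.0914), the pseudogene EIF1AXP1 (0.111) and PDCL (0.113). The knockdown log2 fold changes of these 5 lay between -1.98 and -1.73. Reads of EIF1AXP1 cannot be cleanly separated from those of its parent gene, so its value is uncertain. The closest other member was PLOD1, at rank 976, and the farthest was P3H1, at rank 9385.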

How the data were processed

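RNA-seq was carried out on 8 libraries, and groups came from the sample titles. The values the authors deposited are unnormalized read counts for each gene. Reads were counted, per the file headers, with featureCounts 1.6.1 over exons of Ensembl GRCh37 genes, as reverse-stranded. P4HA1, P4HA2, CRTAP and PLOD3 overlap genes on the opposite strand, which this counting separates. Per the submitters' processing notes, Trim Galore, HISAT2 and DESeq2 were also used, with versions not given in the sources used here.

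Each comparison was fitted on the 4 libraries concerned with edgeR 4.0.16 under R 4.3.3. Genes passed filterByExpr at a minimum count of 10 and a minimum total of 15, libraries were scaled by TMM factors, and the test was the robust quasi-likelihood F test. Benjamini-Hochberg adjustment ran over all genes tested, with a threshold of 0.05. DESeq2 1.42.0 was an alternative. CPM values use TMM factors over all 8 libraries, and per kilobase values use the exon length in the deposited files. Each SE was derived from the test, as the absolute log2 fold change divided by the square root of the quasi-likelihood F statistic. Intervals are 95%, from that SE and the t distribution on edgeR's degrees of freedom. The test was tried on simulated data.

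The 10 members and the gene lists were chosen with earlier results of these data known. All members were named, and from each list up to 3 called genes per direction with the largest change, of which the text gives a part. P4HB and PPIB, as direct partners of members, and COL6A1, the chain with the highest mean CPM over the 8 libraries, were named outside that rule. Alternatives were other scalings, DESeq2, no count filter, all 8 libraries in 1 fit, a replicate block, each replicate left out, and, chosen after seeing the data, mitochondrial genes left out. Counts of replicate pairs differed beyond sampling noise (chi-square per degree of freedom of 12.0 or more), so none was treated as a copy. Of the markers, PECAM1 was not matched; CDH5 and VWF summed to 38.0 to 44.6 CPM in shNTC and 19.5 to 24.9 in shHSF1.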

Additional observations from a re-analysis of the deposited data

How the results depend on the processing

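In the knockdown comparison SERPINH1 kept its fall in all 10 alternatives (log2 fold change -2.02 to -1.79; edgeR or DESeq2 adjusted p at most 8.30e-05), and P3H1 (0.87 to 1.16) and PLOD1 (-0.58 to -0.49) kept their calls. With all 8 libraries in 1 fit, genes called fell to 1639 higher and 2234 lower, and members to 1 higher and 2 lower. Leaving out each replicate gave 2842 to 3149 genes higher, 3190 to 3365 lower, and 2 members higher and 4 lower each time.
In the subline comparison, genes called were 1167 higher and 980 lower with DESeq2, 1660 and 1499 with no count filter, and 1991 and 1822 with all 8 libraries, with 1 member higher in each (CRTAP) and 1 lower in the last (FKBP10). Leaving out each replicate gave 182 to 4702 genes higher, 220 to 4526 lower, 0 to 3 members higher and 0 to 2 lower. For the difference of the comparisons, 1770 genes were higher and 2493 lower; upper-quartile factors gave 2 members higher and 1 lower, and leaving out each replicate gave 837 to 4437 genes higher, 1279 to 4765 lower, 0 to 3 members higher and 1 to 3 lower. The cause of these shifts was not tested.
Same-numbered replicates did not deviate together (correlation -0.00118 in the knockdown and 0.00949 in the subline). With the number as a replicate block, calls went from 7701 to 8015 and from 1240 to 1328 genes, and 1 member, CRTAP, was called higher in the subline (edgeR adjusted p = 0.0493).
Leaving out each replicate turned the sign of some uncalled values. In the knockdown CRTAP ranged from -0.024 to 0.093 (negative without shNTC replicate 2). In the subline SERPINH1 ranged from -0.15 to 0.079 (positive without PC9 parental replicate 2 or PC9-BrM3 replicate 1), PLOD1 from -0.20 to 0.052 (positive without PC9 parental replicate 2), PLOD3 from -0.27 to 0.12 (positive without PC9-BrM3 replicate 1), and, negative without PC9-BrM3 replicate 2, P3H1 from -0.011 to 0.31 and P4HB from -0.022 to 0.21. In the difference P4HA1 ranged from -0.28 to 0.34 (negative without PC9 parental replicate 2 or PC9-BrM3 replicate 1), P4HA2 from -0.29 to 0.060 (positive without PC9 parental replicate 1) and PLOD3 from -0.064 to 0.30 (negative without PC9-BrM3 replicate 1).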
